A study of Mus musculus with 2 samples.

Results

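Potassium, sodium and hyperpolarisation-activated (HCN) channel subunits were examined in the mouse adrenal gland. Members were the protein-coding genes whose symbols begin with Kcn, except the two-pore Kcnk genes, or with Scn or Hcn followed by a digit, which gave 98 of the 55536 genes in the gene tables and 98 of the 22015 protein-coding genes of the nuclear genome. The tissue came from males of B6CASTF1/J, the F1 hybrid of C57BL/6J and CAST, at the age of 2 months, with no treatment named in the labels. Total RNA of the gland (300 ng a library) was sequenced with a strand-keeping kit in 2 libraries of a single group, replicate 1 and replicate 2. The labels disagree on whether these are different animals: the sample description numbers differ, whereas the library descriptions and donor field are shared. The design therefore compares no conditions, and no p-value was computed.

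An adrenal gland holds a cortex, whose cells make steroid hormones, around a medulla, whose chromaffin cells fire action potentials and release catecholamines. Potassium channels set the resting potential and end each action potential, sodium channels carry its rising phase, and HCN channels open when the membrane becomes more negative. In the outer zone of the cortex a potassium-set membrane potential controls calcium entry and so aldosterone output. Pore-forming subunits make the ion path, and accessory subunits alter how fast the pore opens and closes or how much of it reaches the surface.

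Depth was 36512736 expected counts for replicate 1 and 34454892 for replicate 2. Both parts of the gland were present in both libraries: all 5 cortex markers and all 7 chromaffin markers reached 1 TPM (the share of a library's transcripts after division by length), with summed levels of 10490 and 11960 TPM for the cortex and 2127 and 1868 TPM for chromaffin cells in replicates 1 and 2. Other tissue was present too. The 3 brown fat markers summed to 1373 TPM in replicate 1 and 691 TPM in replicate 2, the 5 smooth muscle and pericyte markers to 126 and 106 TPM, and the 4 Schwann and glia markers, of which 2 reached 1 TPM, to 9.97 and 5.95 TPM. The 4 neuron markers summed to 3.11 and 2.88 TPM and the 4 skeletal muscle markers to 0.13 and 0.22 TPM. Because the whole gland was measured, fewer cells of a type and less RNA per cell cannot be told apart.

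Most channel subunits stood below 1 TPM by the alignment-based tables, and the calcium-activated potassium channels stood highest there. The level of 1 TPM was reached in both libraries by 31 of the 98 members (31.6%), against 54.2% of nuclear protein-coding genes. Only Kcnn2 and Kcnma1, 2 of the 98 members, reached 10 TPM in both libraries, against 25.4% of nuclear protein-coding genes. The other 29 lay between 1 and 10 TPM. With TPM rescaled to nuclear protein-coding genes alone, 49 members reached 1 (against 61.0%), and 66 had 10 or more counts in both libraries (against 64.8%). A further 3 members, Kcnu1, Kcnt1 and Hcn3, reached 1 TPM in replicate 2 alone (Kcnt1 is named here after its values were seen). The median member stood at 0.345 TPM, and 29 of the 98 averaged below 0.1 TPM, against 32.2% of nuclear protein-coding genes.

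At the other end, 5 members had no count in either library (5.1%, against 21.7% of nuclear protein-coding genes). These were Kcna7, Kcna10, Kcns1, Kcnj1 and Kcnj13, named after their values were seen. A count of 0 allows up to 3 counts per library. In all, the members summed to 163.7 TPM in replicate 1 and 179.3 TPM in replicate 2 (mean 171.5 ± 11, SD, n = 2), which was 0.055% and 0.0589% of the TPM of nuclear protein-coding genes. Potassium pore and modifier subunits held 75.2% and 76.3% of the members' TPM, sodium channel subunits 13.2% and 12.2%, potassium accessory subunits 9.83% and 9.91%, and HCN subunits 1.76% and 1.68%.

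**Figure D1:**
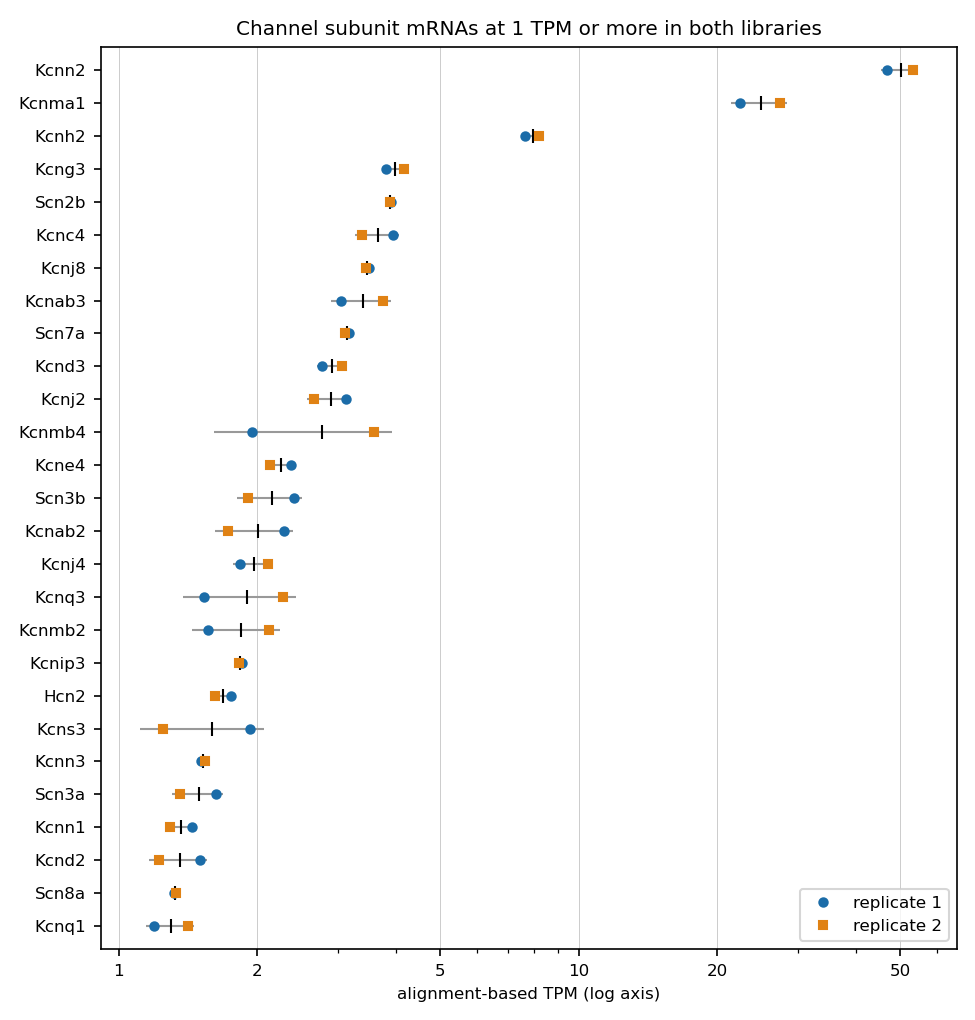
Alignment-based TPM (log axis) of 27 of the 31 subunits at 1 TPM or more in both libraries; circles are replicate 1, squares replicate 2, ticks the mean and grey lines 1 SD each way (n = 2). Kcnn2 and Kcnma1 stand above 20 TPM in both libraries, and the other 25 between 1 and 10 TPM.

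Kcnn2, the pore of the small-conductance calcium-activated channel SK2, stood at 46.8 TPM in replicate 1 and 53.3 TPM in replicate 2 (3669 and 3730 counts). SK channels open on a rise of cell calcium and contribute to the afterhyperpolarisation that spaces action potentials. The authors' deposited bounds on the level were 44.6 to 49 TPM and 50.6 to 55.3 TPM. Kcnma1, the pore of the large-conductance BK channel, opened by calcium and depolarisation together, stood at 22.4 and 27.4 TPM (3577 and 4340 counts), with deposited bounds of 21.4 to 23.7 and 26.2 to 28.8 TPM. These 2 genes held 42.3% of all the members' TPM in replicate 1 and 45.0% in replicate 2. In neither gene did the deposited bounds of the libraries overlap, and both genes were higher in replicate 2 on the TPM scale.

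The other SK genes were far below Kcnn2. Kcnn3, which encodes SK3, stood at 1.51 and 1.54 TPM and Kcnn1, which encodes SK1, at 1.44 and 1.29 TPM, and the gap between these 2 genes in replicate 1 was smaller than the gap between the libraries for Kcnn1. By the read-based tables their order was reversed, with Kcnn1 at 2.80 and 3.51 TPM and Kcnn3 at 2.65 and 2.80 TPM. Kcnn4, the intermediate-conductance channel known from blood cells and epithelia, stood at 0.28 and 0.50 TPM. Of the related Slo2 and Slo3 genes, Kcnu1, whose channel is known from sperm, stood highest at 0.90 and 1.23 TPM from 35 and 42 counts.

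BK channels take up beta subunits that set their calcium sensitivity and inactivation. Kcnmb4, a beta subunit known mainly from brain, stood at 1.95 and 3.58 TPM (97 and 145 counts). Kcnmb2, whose protein blocks the open pore and gives inactivating BK current in chromaffin cells, stood at 1.56 and 2.12 TPM (103 and 92 counts). For Kcnmb2 the TPM was higher in replicate 2 while the count was lower. TPM, unlike the count, is also divided by the effective length of the transcripts that the reads were assigned to. Kcnmb1, the beta subunit of smooth muscle, had 9 and 6 counts. Kcnmb3 had 22 counts in replicate 1 and 0 in replicate 2, with an authors' upper bound of 0.0504 TPM in replicate 2.

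Leucine-rich repeat proteins serve as the gamma subunits of BK channels. Lrrc55 stood at 5.27 and 6.28 TPM, Lrrc38 had 6 and 0 counts, Lrrc52 had 2 counts in each library, and Lrrc26 had none. Lrrc55 was thus above either BK beta subunit in both libraries.

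The 174-base cassette exon of Kcnma1 shown next is the longest whole-codon internal exon that some Kcnma1 transcripts skip. It is known as the stress-axis regulated exon (STREX), and in rat adrenal medulla its inclusion is known to depend on pituitary and adrenal hormones. It adds 58 codons to the cytoplasmic part of the channel and lies in an exon at chr14:23425567-23425740 on the minus strand of GRCm38. Its sequence from the GENCODE M21 transcripts is given 5′ to 3′.
Kcnma1 STREX: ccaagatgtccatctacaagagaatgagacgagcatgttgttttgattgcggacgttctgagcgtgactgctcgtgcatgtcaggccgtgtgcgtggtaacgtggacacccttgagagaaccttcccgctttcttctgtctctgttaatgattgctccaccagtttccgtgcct
The exon was held by 10 of the 31 Kcnma1 transcripts that span it (38 are annotated in all), and 3 of the 10 were at 0.1 TPM or more in either library. Transcripts with the exon held 2.36 of 20.1 TPM in replicate 1 (11.8%) and 1.39 of 24.4 TPM in replicate 2 (5.69%), a mean of 8.75 ± 4.32% (SD, n = 2). By the read-based quantifier, which assigns reads to transcripts without the deposited alignments, the share was 15.6% in replicate 1 and 11.3% in replicate 2. Of the TPM of the spanning transcripts, most was assigned to those without the exon in both libraries by both quantifiers. The share with the exon was lower in replicate 2 by both. Reads across the junctions of the exon were not counted, and both quantifiers worked on the same libraries.

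**Figure D2:**
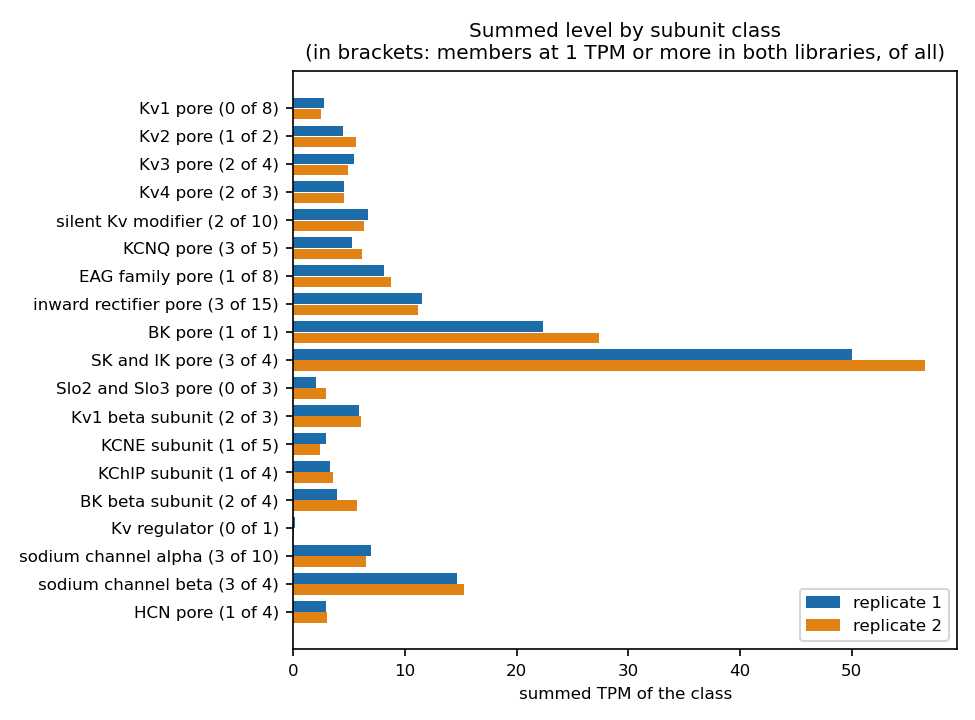
Summed alignment-based TPM of each subunit class in replicate 1 (upper bars) and replicate 2 (lower bars), with the number of members at 1 TPM or more in both libraries in brackets. The SK and IK class stands at 50.04 and 56.6 TPM and the BK pore at 22.4 and 27.4 TPM, above every other class. By the read-based tables the order differs: the inward rectifiers, Kcnj5 included, sum to 66.9 and 85.7 TPM, below the SK and IK class at 89.6 and 105.6 TPM and above the BK pore at 42.4 and 56.7 TPM.

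Voltage-gated potassium pores of the Kv1 to Kv4 families, which repolarise action potentials, summed to 17.1 TPM in replicate 1 and 17.6 TPM in replicate 2 over 17 genes, of which 5 reached 1 TPM. Kcnc4, which encodes the fast inactivating Kv3.4, stood at 3.94 and 3.38 TPM. Of the Kv4 genes, whose channels carry A-type current, Kcnd3 stood at 2.76 and 3.05 TPM and Kcnd2 at 1.5 and 1.22 TPM. Kcnc4 was above both Kv4 genes in both libraries.

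None of the 8 Kv1 genes reached 1 TPM in both libraries, and the family summed to 2.75 and 2.47 TPM. Its highest member was Kcna5, which encodes Kv1.5, at 0.86 and 0.74 TPM. Kcna4, the A-type member of the family, stood at 0.30 and 0.16 TPM. Of the 3 cytoplasmic beta subunits that bind Kv1 pores, 2 were above every Kv1 pore: Kcnab3 stood at 3.04 and 3.76 TPM and Kcnab2 at 2.28 and 1.73 TPM. For Kcnab3 a retained-intron transcript, Kcnab3-203, held 46.6% of the TPM in replicate 1 and 69.7% in replicate 2, and coding transcripts held a mean of 38.2%.

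Silent Kv subunits form no channel alone and join Kv2 pores. Kcng3 led this class at 3.81 and 4.16 TPM, and Kcns3 stood at 1.93 and 1.25 TPM. Partners of the same complexes were also present. Amigo1, an adhesion protein bound to Kv2 channels, stood at 8.04 and 8.44 TPM. For Kv4, the calcium-binding subunit Kcnip3 stood at 1.85 and 1.82 TPM and the peptidase-like subunit Dpp6 at 2.65 and 2.42 TPM, while its relative Dpp10 had 5 and 4 counts. Kcnrg, which hinders the assembly of Kv1 channels, had 7 and 2 counts.

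The KCNQ genes encode slowly opening channels. Kcnq3, a subunit of the M-current of neurons, stood at 1.53 and 2.27 TPM and Kcnq1 at 1.19 and 1.41 TPM. The coding share of Kcnq3 TPM averaged 59.2%, and its noncoding transcript Kcnq3-202 stood at 0.27 and 0.79 TPM. KCNE peptides are single-span partners of KCNQ1. Kcne4, known as an inhibitor of KCNQ1 current, stood at 2.37 and 2.13 TPM, Kcne3 had 14 and 4 counts, and Kcne1 had 3 and 1 counts. Kcne4 was thus the sole KCNE gene at 1 TPM or more.

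Kcnh2, which encodes the ERG channel of cardiac repolarisation, was the highest potassium pore gated by voltage alone, at 7.65 and 8.21 TPM (947 and 981 counts). The EAG family to which it belongs summed to 8.14 and 8.73 TPM over 8 genes, so nearly all of it was Kcnh2. By transcript, Kcnh2-201, with 3486 coding bases, stood at 3.55 and 4.87 TPM. Kcnh2-202, with 2460 coding bases, stood at 2.94 and 2.02 TPM.

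Inward rectifiers pass potassium more easily into the cell and hold the resting potential. Kcnj8, the Kir6.1 pore of ATP-sensitive channels in vascular smooth muscle and pericytes, stood at 3.49 and 3.44 TPM, and its sulphonylurea receptor partner Abcc9 at 3.96 and 4.87 TPM. Kcnj11, the Kir6.2 pore of endocrine cells, stood at 0.84 and 0.71 TPM, and its partner Abcc8 at 0.48 and 0.64 TPM. Both genes of the vascular pair were thus above both genes of the endocrine pair in both libraries.

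Of the strong rectifiers, Kcnj2 stood at 3.11 and 2.66 TPM and Kcnj4 at 1.83 and 2.11 TPM. The 5 smooth muscle and pericyte markers were all lower in replicate 2, with a median log2 ratio of -0.40, while Kcnj8 had a ratio of -0.16 (95% counting interval -0.39 to 0.07), and the part of those cells in the Kcnj8 level was not tested.

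Kcnj5, the G-protein-gated rectifier GIRK4, is the gene whose somatic mutations at the selectivity filter are known from human aldosterone-producing adenomas. By the read-based tables it stood at 47.7 TPM in replicate 1 and 66.0 TPM in replicate 2 and ranked 2 among the 98 members, after Kcnn2. By the alignment-based tables it stood at 0.20 TPM in both libraries, from 35 and 34 counts, and ranked 62. The read-based level was 238-fold and 330-fold the alignment-based level. With it the inward rectifier class stood above the BK pore by the read-based tables and below it by the alignment-based tables. Its related GIRK genes were low by both: Kcnj3 at 0.42 and 0.51 read-based TPM against 0.27 and 0.28 alignment-based, and Kcnj6 at 0.56 and 0.54 read-based TPM against 0.33 and 0.26 alignment-based.

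The read-based counts lay on a single transcript. Kcnj5-203 took 2649 and 3255 read-based counts, against 0 alignment-based counts in both libraries, and held 98.9% and 99.5% of the gene's read-based TPM. Kcnj5-201, which encodes the full channel, had 55.1 and 35.0 read-based counts, against 35 and 34 alignment-based counts. For the full-length transcript the quantifiers were thus close in replicate 2, while the read-based count was higher in replicate 1. For Kcnj5-203 they were far apart in both libraries.

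Kcnj5-203 has 318 coding bases, against 1257 in Kcnj5-201 and Kcnj5-202. It lacks exon 3 of Kcnj5-201, the 939-base exon at chr9:32322081-32323019 (minus strand, GRCm38), which holds the codons of the selectivity filter. Of the 2410 distinct 31-base words of Kcnj5-203, 27 were in no other annotated transcript, 2381 were in other Kcnj5 transcripts alone, and 2 were also in 9 transcripts of other genes. Among those 9, Soat1-207 had 18350 and 19120 read-based counts, against 14028 and 14922 alignment-based counts. Which of the Kcnj5 levels is right was not tested.

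The filter codons are shown for Kcnj5 and for pores of several classes, because the potassium pores, modifiers and HCN members match a common motif, given below. Each line gives 45 coding bases, 5′ to 3′, from the GENCODE M21 transcripts. Capitals mark the 5 codons of the filter, and codons are numbered from 1 at the start of the coding sequence.
Kcnj5 (codon 149, exon 3, chr9:32322544-32322588, minus strand): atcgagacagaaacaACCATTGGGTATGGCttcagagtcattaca
Kcnj8 (codon 140, exon 3, chr6:142566433-142566477, minus strand): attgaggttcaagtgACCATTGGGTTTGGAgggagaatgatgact
Kcnma1 (codon 287, exon 8, chr14:23528398-23528442, minus strand): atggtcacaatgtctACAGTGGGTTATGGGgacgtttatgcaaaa
Kcnn3 (codon 508, exon 4, chr3:89645497-89645541, plus strand): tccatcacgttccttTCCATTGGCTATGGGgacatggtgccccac
Kcnh2 (codon 626, exon 7, chr5:24325540-24325584, minus strand): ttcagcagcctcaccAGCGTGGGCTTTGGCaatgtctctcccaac
Hcn2 (codon 400, exon 4, chr10:79728938-79728982, plus strand): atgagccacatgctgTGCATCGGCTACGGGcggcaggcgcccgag
The motif searched was threonine, serine or cysteine, then valine, isoleucine, threonine or leucine, glycine, tyrosine, phenylalanine or leucine, and glycine. It was found in all 67 potassium pore, modifier and HCN members, once in 66 and more than once in 1. At the protein level there were 8 versions of the filter, the most frequent in 21 members. At the DNA level the same 15 bases took 58 forms. A match is a description of the coding sequence and not a measurement of a channel.

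**Figure D3:**
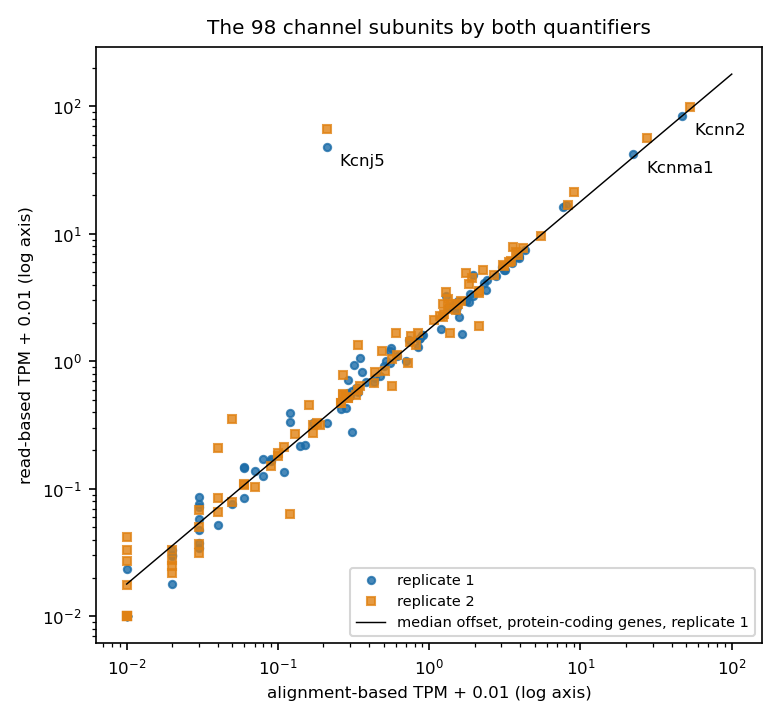
Read-based against alignment-based TPM of the 98 members, each plus 0.01, on log axes; circles are replicate 1, squares replicate 2, and the line is the median offset of protein-coding genes in replicate 1. Kcnj5 stands apart at 47.7 and 66.0 read-based TPM against 0.20 alignment-based TPM, while Kcnn2 and Kcnma1 lie near the line.

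Over protein-coding genes the read-based TPM was higher than the alignment-based TPM by a median of 0.84 in replicate 1 and 0.92 in replicate 2 on the log2 scale. After that offset was removed, 1 of the 46 members at 1 TPM or more by either quantifier was over 2-fold apart in both libraries (2.17%, against 1.9% of 13356 protein-coding genes), and this was Kcnj5. A read-based excess of over 32-fold in both libraries, as in Kcnj5, was seen in 14 of the 13356 genes (0.105%). The other members lay between -1.07 and 0.82 after centring. At the low end were Scn3a (-0.85 and -0.64), Kcnmb2 (-0.37 and -1.07) and Kcnj11 (-0.08 and -0.52), and at the high end after Kcnj5 were Kcnq5 (0.48 and 0.82) and Scn2a (0.55 and 0.35).

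The beta subunits of sodium channels are single-span proteins that modify gating and cell adhesion. Scn2b stood at 3.90 and 3.88 TPM, Scn3b at 2.40 and 1.91 TPM, and Scn4b at 0.29 and 0.34 TPM. The 10 alpha genes, which form the pores, summed to 6.94 and 6.53 TPM. Scn2b was above each alpha gene named here in both libraries.

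Scn7a, which encodes a sodium-sensing channel of glia and other non-firing cells, was the highest alpha gene at 3.16 and 3.10 TPM. Scn3a, a pore of developing neurons and of chromaffin cells, stood at 1.63 and 1.36 TPM, and Scn8a, a main pore of adult neurons, at 1.32 and 1.33 TPM. Scn9a, the pore of peripheral neurons that also carries current in chromaffin cells, stood at 0.37 and 0.42 TPM, Scn2a at 0.34 and 0.26 TPM and Scn1a at 0.07 and 0.03 TPM. The order Scn7a, Scn3a or Scn8a, Scn9a held in both libraries, whereas Scn3a and Scn8a were close in replicate 2 by the alignment-based tables. By the read-based tables Scn8a, at 2.64 and 3.09 TPM, stood above Scn3a, at 1.62 and 1.67 TPM. The 365-base transcript Scn3a-203 held 0.71 and 0.48 TPM of Scn3a, from 7.34 and 4.66 alignment-based counts, against 0 read-based counts. The sensory neuron pores Scn10a and Scn11a had 1 count each over both libraries.

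Scn1a, Scn2a, Scn3a and Scn9a were the 4 members with expected counts that were not whole, as a quantifier gives when it divides reads among similar sequences, so their separate values are uncertain. The other 94 members had whole counts in both libraries. Proteins that anchor or remove sodium channels were above the alpha genes: the ankyrins Ank2 and Ank3 stood at 10.5 and 12.3 TPM and at 3.73 and 3.96 TPM, and the ubiquitin ligases Nedd4 and Nedd4l at 126 and 136 TPM and at 7.04 and 7.72 TPM. Fgf11, which binds the C-terminal tail of sodium channels, stood at 3.70 and 5.05 TPM, while its relatives were lower, Fgf12 at 1.03 and 0.89 TPM, Fgf13 at 0.84 and 0.79 TPM and Fgf14 at 0.30 and 0.24 TPM. Nalcn, the sodium leak channel, stood at 1.83 and 1.60 TPM.

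HCN channels carry a depolarising current that paces firing cells. Hcn2 stood at 1.75 and 1.62 TPM, Hcn3 at 0.69 and 1.06 TPM and Hcn4, the pacemaker subunit of the heart, at 0.42 and 0.32 TPM. The order of these 3 genes was the same in both libraries. Pex5l, an HCN trafficking partner, stood at 0.52 and 0.35 TPM, and Cntnap2, which clusters Kv1 channels, at 0.76 and 0.56 TPM. In all, 10 of the 20 partner genes examined reached 1 TPM in both libraries (against 54.2% of nuclear protein-coding genes).

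Agreement between the libraries was examined gene by gene as the log2 ratio of replicate 2 over replicate 1, after 0.5 was added to each count and library size was taken out. Of the 63 members averaging 20 or more counts, 37 were lower and 26 higher in replicate 2 (58.7% lower, against 51.1% of all genes), and the median ratio was -0.09, against -0.01 over all genes. The 95% counting interval, which covers counting error alone, lay below 0 for 9 members (14.3%, against 17.8%) and above 0 for 5 (7.94%, against 16.4%). At a mean of 100 or more counts, 0 of 32 members were over 2-fold apart, against 0.451% of 12430 genes. At 20 or more counts, 2 of 63 were (3.17%, against 1.56% of all genes): Kcnj3 with 51 and 22 counts (-1.19) and Kcnh1 with 18 and 37 counts (1.03), the second named after its values were seen. The TPM of Kcnj3 was 0.27 and 0.28, so its lower count was not matched by a lower TPM. For Kcnh1 the TPM, at 0.07 and 0.16, was also higher in replicate 2.

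At 100 or more counts the members lower in replicate 2 were led by Kcna2, a Kv1 pore of axons, with 174 and 101 counts (-0.77, interval -1.15 to -0.42). Next were Kcns3 with 180 and 110 counts (-0.70, -1.06 to -0.35), Kcnd2 with 294 and 223 counts (-0.39), Kcnn1 with 134 and 102 counts (-0.38) and Kcnj2 with 645 and 515 counts (-0.32). Over the same libraries the 4 Schwann and glia markers had a median ratio of -0.81 (3 of 4 lower), the 4 neuron markers -0.55 (4 of 4 lower), the 3 brown fat markers -1.10 (3 of 3 lower) and the 7 chromaffin markers -0.27 (7 of 7 lower), and the part of these cells in the members' ratios was not tested.

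The members higher in replicate 2 were led by Kcnmb4 with 97 and 145 counts (0.59, interval 0.21 to 0.97) and Kcnq1 with 106 and 149 counts (0.50, 0.13 to 0.87). Next were Kcnma1 (0.29, 0.22 to 0.35) and Scn8a with 170 and 198 counts (0.23, -0.08 to 0.53). Kcnn2 had a ratio of 0.03 (-0.03 to 0.10), so its counting interval held 0. The 5 cortex markers had a median ratio of 0.09 (1 of 5 lower), the 3 kidney markers 1.58 (0 lower, summing to 1.65 and 4.72 TPM) and the 2 liver markers 1.88 (0 lower, summing to 1.37 and 6.51 TPM), and their part in these ratios was not tested. Kcnmb4 and Kcnq1 are each overlapped by exons of an opposite-strand gene, Kcnmb4os2 at 0.63 and 2.00 TPM and Kcnq1ot1 at 0.60 and 0.84 TPM, and both of these were also higher in replicate 2. The kit keeps strand per the labels, but how strand was used in quantification is not stated in the sources used here.

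**Figure D4:**
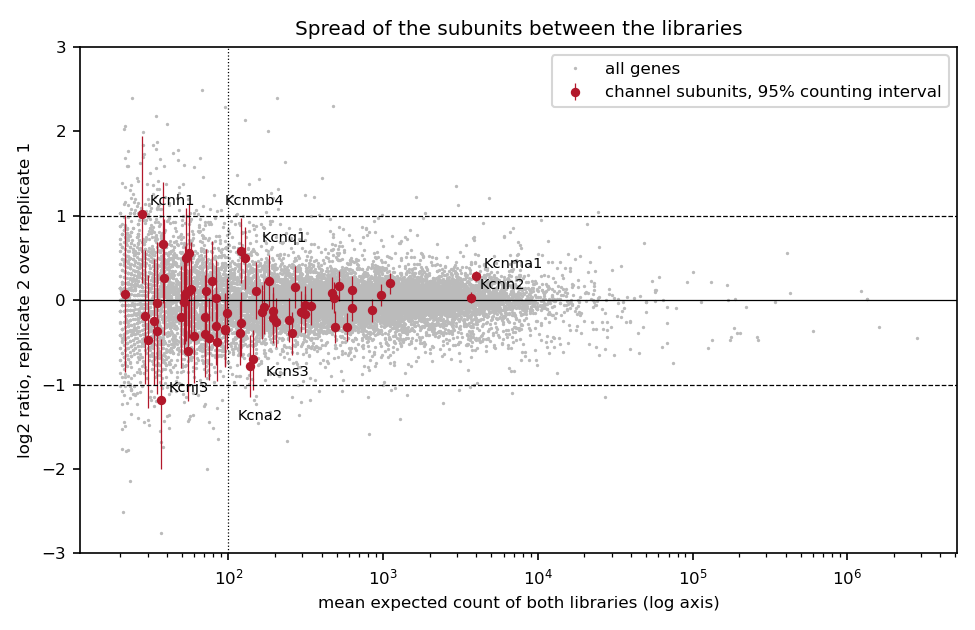
Log2 ratio of replicate 2 over replicate 1 against the mean expected count (log axis), for all genes at a mean of 20 or more counts (grey) and the 63 members among them (red, with 95% counting intervals). No member right of the dotted line at 100 counts lies beyond the dashed lines at 2-fold, and the named members with intervals far from 0 include Kcna2 (-0.77), Kcns3 (-0.70) and Kcnmb4 (0.59).

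Transcript structure was examined for the 26 of the 31 members at 1 TPM that have more than 1 annotated transcript. The median share of a gene's TPM on its leading transcript was 58.7% (61.2% in replicate 1 and 60.3% in replicate 2), and 21 of the 26 had the same leading transcript by both quantifiers. Coding transcripts held a median of 98% of the TPM of the 31 members, and 4 members averaged under 75%. Besides Kcnab3 and Kcnq3 these were Kcnn3 at 51.0% and Kcnab2 at 66.9%. The share of Kcnab2 was 57.0% in replicate 1 and 76.9% in replicate 2, with a mean of 91.2% by the read-based tables. No value over all genes is given beside these transcript shares and counts, so none is shown to be particular to the members.

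Kcnn2 was divided among several transcripts. Kcnn2-203, with 1302 coding bases, stood at 17.8 and 20.8 TPM, Kcnn2-208, with 1722, at 12.9 and 16.1 TPM, and Kcnn2-201, with 2517 and thus a longer protein, at 8.88 and 8.94 TPM. Kcnn2-201 stood at 0.79 and 1.19 read-based TPM, against these alignment-based levels, and Kcnn2-205, also with 1722 coding bases, at 22.5 and 24.4 read-based TPM, against 0 and 0.01 alignment-based TPM. The level of the long form thus depended on the quantifier, although that of the gene did not beyond the common offset. Kcns3 changed its leading transcript between libraries: Kcns3-202 stood at 1.38 and 0 TPM and Kcns3-203 at 0 and 0.79 TPM. The gene had 180 and 110 counts, and the cause of the switch was not tested. Scn8a was spread most widely, with a leading share of 21.4% over 20 transcripts.

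**Figure D5:**
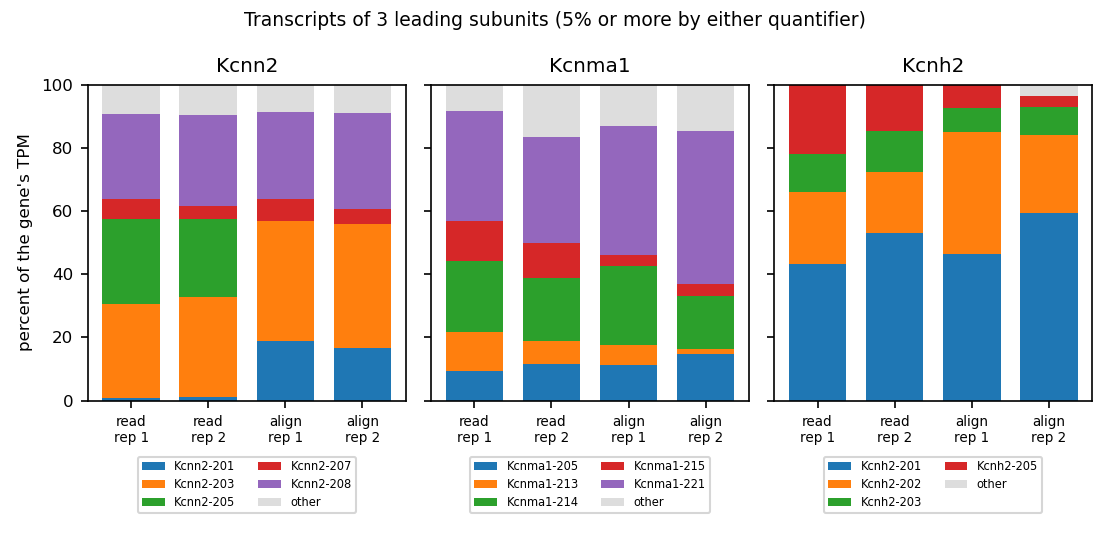
Percent of gene TPM held by each transcript of Kcnn2, Kcnma1 and Kcnh2, by the read-based (read) and alignment-based (align) quantifiers in replicates 1 and 2 (rep 1, rep 2); transcripts under 5% by both are pooled as other. Kcnn2-201 holds 19% and 16.8% by alignment and little by the read-based tables, while Kcnn2-203 and Kcnn2-208 are large in all 4 bars.

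Position was described for the members as annotated in GENCODE M21. With gaps of up to 1 Mb, 40 of the 98 members fell in 15 clusters of 2 or more. The cluster Scn3a, Scn2a, Scn1a, Scn9a and Scn7a on chromosome 2 held unlike levels side by side, with Scn7a at 3.16 and 3.10 TPM and its neighbour Scn9a at 0.37 and 0.42 TPM. The neighbours Scn10a and Scn11a on chromosome 9 were both near 0.

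Promoters were matched in RefSeq (GRCm38.p6) for 70 of the 98 members, over the 250 bases before each start. At least 10 CG dinucleotides (letters CG, which read the same on both strands) were found in 66.7% of the 21 promoters of members at 1 TPM and in 36.7% of the 49 promoters of other members. Over the 16522 nuclear protein-coding genes with a promoter entry the share was 52.1%, with 76.1% for genes at 1 TPM and 21% for the rest. For members the entry nearest the annotated gene start was taken, and for all genes the first entry listed. The shares of members and of all genes thus rest on promoters chosen differently. In the members and in all genes alike, the share was higher for those at 1 TPM.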

How the data were processed

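Total RNA-seq of 2 adrenal gland libraries was analysed from the authors' tables. The build, per the labels, was mm10 (GRCm38), and the annotation, per the authors' file notes, GENCODE M21. The software that aligned and quantified the reads is not given in the sources used here. The authors deposited expected counts (reads shared among transcripts, not whole) and TPM from transcriptome alignments, called alignment-based, with interval bounds on gene TPM, used as a signal, per the file headers. They also deposited estimated counts and TPM from reads and an index, called read-based, per the file headers, which were summed here per gene. TPM is relative to all transcripts of the library, short noncoding RNAs included, so each member's TPM depends on them.

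Counts were rounded to whole numbers for library scaling with TMM in edgeR 4.0.16 (R 4.3.3), with DESeq2 1.42.0 size factors as an alternative. Ratios used counts plus 0.5. Intervals are exact Clopper-Pearson 95% intervals of the share of counts in replicate 2, and they and the limit of 3 counts for a count of 0 cover counting error only. Scripts ran in Python 3.11.15 and were tested on simulated data. With 1 library against 1 library no test was made, and whether the spread is biological or technical is unknown.

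Named members are those at 1 TPM in both libraries, the highest of each class, 5 each way by ratio at 100 or more counts, 3 each way by quantifier difference at 1 TPM by either, and a list of genes of adrenal interest, with 20 partner genes. Values of some single genes that this rule would name are left out of the text. The members, classes and lists were chosen with earlier results of these data known. Whether CAST reads were assigned as well as C57BL/6J reads was not tested.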

Additional observations from a re-analysis of the deposited data

How the results depend on the processing

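Members at 1 TPM in both libraries numbered 31. After rescaling TPM over nuclear protein-coding genes they numbered 49 (against 61.0% of those genes), and 66 had 10 or more counts in both libraries (against 64.8%). With read-based TPM they numbered 40 (against 58.3%) and at 0.5 TPM 41 (against 58.4%). Leaving out a replicate gave 31 to 34. The summed level of 171.5 TPM was 569.8 after rescaling, 379.9 read-based and 323.1 read-based without Kcnj5 (chosen after seeing the data), and 163.7 to 179.3 on leaving out a replicate. The median leading transcript share of 58.7% was 56.8% read-based, 62.9% over all members with 20 or more counts, and 61.2% to 62.2% on leaving out a replicate, where the leading transcript was chosen anew from the replicate kept. Members over 2-fold apart numbered 2 at 20 or more counts, and 0 at 100 counts under total count, DESeq2 and read-based scaling. The DESeq2 size factors were 1 in both libraries, so that setting left the counts unscaled. The median ratio ran from -0.14 to 0.01 over the 7 alternatives. The partner count ran from 10 to 15. Of 32 single members, 32 moved by over 1 SD on rescaling and 30 with read-based TPM. Rescaling multiplies every value of a library by the same factor, which differs between the libraries, and for the read-based values the cause was not tested. No paired analysis was possible because there was 1 group. Depth limits the members under 20 counts, for which no ratio is described except where counts are given.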
